A study of Mus musculus with 22 samples.

Results

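SOCS and DUSP genes encode brakes on the signals that a macrophage receives, and 9 of them were followed here in mouse BMDM, bone marrow-derived macrophages, which are grown in culture from marrow. They were chosen by symbol: Socs1, Socs2, Socs3 and Cish of the suppressor of cytokine signalling family, and Dusp1, Dusp2, Dusp5, Dusp6 and Dusp16 of the dual-specificity phosphatases. All 9 were found among the 19505 genes that the annotation of the array names, and each had 1 probe set, so no choice between probe sets was needed. Clariom S arrays of 4 groups were compared. HMB+LPS (5 arrays) held BMDM given 1 mM HMB (β-hydroxy-β-methylbutyrate, which cells make from leucine) together with 10 ng/ml lipopolysaccharide (LPS), the bacterial agent used here to polarize the cells to an M1-like state. LPS (5 arrays) held BMDM given LPS without HMB, HMB (6 arrays) held M0 macrophages given HMB, and Ctrl (6 arrays) held M0 macrophages given neither. LPS was given for 48 h, with or without HMB, and M0 macrophages of the HMB group were given HMB for 48 h. All groups came from C57/bl6 marrow grown in medium conditioned by L929 cells, a fibroblast line that secretes macrophage colony-stimulating factor. The labels do not say whether arrays of a group came from separate animals or cultures, so the p-values speak only to the spread among these samples, part or all of which may be technical. The comparisons asked what LPS did to these genes with and without HMB, and what HMB did with and without LPS.

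Cytokine receptors signal through JAK kinases and STAT transcription factors, and STATs switch on SOCS genes. SOCS proteins then bind the receptor or its JAK and damp further signalling, a negative feedback loop. Toll-like receptors, among them the LPS receptor TLR4, and growth factor receptors activate the MAP kinases ERK, p38 and JNK, and DUSP proteins remove the phosphates that keep those kinases active. Socs1 restrains interferon signals, Socs3 those of interleukin 6 and related cytokines that use the gp130 receptor chain, Cish and Socs2 those that run through STAT5. Dusp1 acts in the nucleus on p38 and JNK and is known in macrophages for limiting cytokine output after LPS. Dusp2 and Dusp5 are nuclear phosphatases, Dusp6 is a cytoplasmic phosphatase of ERK, and Dusp16 acts mainly on JNK.

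The promoters of these genes carry some of the sequences through which the signals they restrain are known to act. RefSeq windows (GRCm38.p6) of 300 bases, 250 before and 50 after the annotated start, were at hand for 8 of the 9 genes, all but Socs2. The following stretches are shown because each holds a match to such a motif, in capitals, searched on both strands. In Socs1 (chr16:10785537-10785786, minus strand, the 250 bases before the start) the capitals are 2 overlapping matches to GAAA and GAAA parted by any 2 bases, the pattern bound by interferon regulatory factors. In Socs3 (chr11:117969367-117969616, minus strand, the 250 bases before a start that lies inside the gene's listed span rather than at its outer end) they are 1 match to TTCNNNGAA, the pattern bound by STAT dimers. In Cish (chr9:107296654-107296683, plus strand, 30 bases over the start) they are 2 matches to that STAT pattern, 1 at positions 1 to 9 and 1 at positions 12 to 20 counted from the start. In Dusp1 (chr17:26508582-26508641, minus strand, 60 bases) they are TGACGTCA, the cyclic AMP response element. In Dusp5 (chr19:53529043-53529102, plus strand, 60 bases) they are 2 adjoining CArG boxes, the core of the serum response element.
Socs1: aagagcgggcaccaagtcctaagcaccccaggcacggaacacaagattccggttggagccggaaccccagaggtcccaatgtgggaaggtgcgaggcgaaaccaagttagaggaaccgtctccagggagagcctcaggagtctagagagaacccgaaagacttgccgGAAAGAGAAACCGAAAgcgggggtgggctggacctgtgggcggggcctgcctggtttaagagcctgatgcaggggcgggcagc
Socs3: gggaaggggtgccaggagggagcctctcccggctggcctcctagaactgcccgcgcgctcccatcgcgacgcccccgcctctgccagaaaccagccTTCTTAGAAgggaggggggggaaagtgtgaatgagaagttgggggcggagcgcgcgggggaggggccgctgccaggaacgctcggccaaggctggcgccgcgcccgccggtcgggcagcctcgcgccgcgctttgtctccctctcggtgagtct
Cish: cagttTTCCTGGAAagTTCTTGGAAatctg
Dusp1: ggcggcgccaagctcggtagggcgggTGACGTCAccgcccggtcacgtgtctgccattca
Dusp5: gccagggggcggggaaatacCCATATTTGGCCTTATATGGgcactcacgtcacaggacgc

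The STAT pattern TTCNNNGAA was present in 2 of the 8 windows and in 8.3% of the 32851 windows of all genes. The interferon regulatory factor pattern was in 1 of the 8 and in 3.44% of all windows, TGACGTCA in 1 and 1.79%, and the CArG box in 1 and 1.63%. GGG and CC parted by any 5 bases, an NF-κB pattern, was in 7 of the 8, all but Dusp16, and in 50.8% of all windows, so its presence sets these genes apart little. The AP-1 pattern TGANTCA was in none of the 8 and in 7.81% of all windows. Such matches describe the sequence and were not tested as binding sites.

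**Figure D1:**
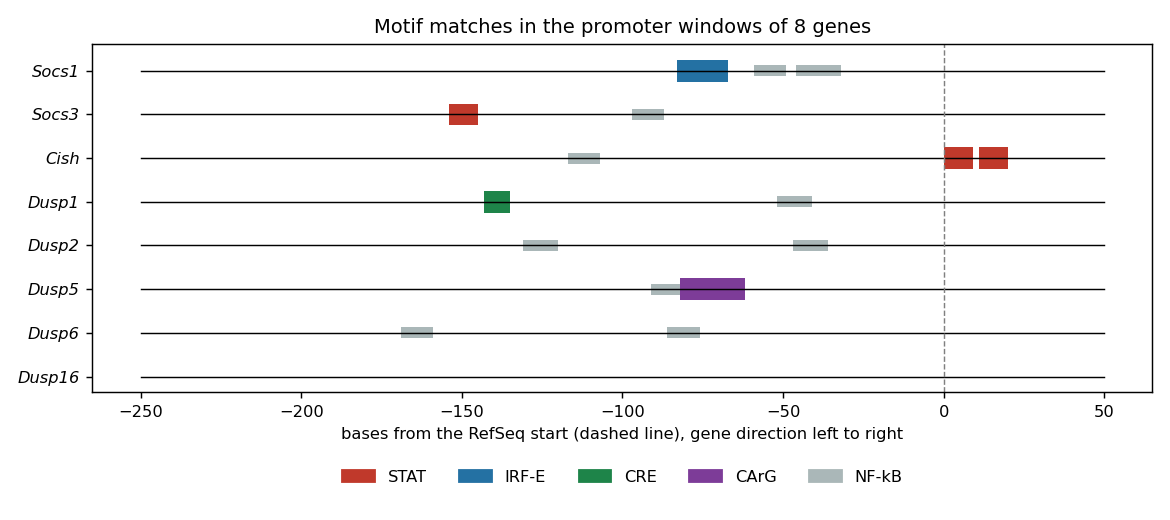
Motif matches in 8 promoter windows, with bases from the RefSeq start on the horizontal axis (dashed line at the start) and 1 line per gene. The STAT pattern (red) lies in Socs3 and Cish, the interferon regulatory factor pattern (IRF-E, blue) in Socs1, the cyclic AMP response element (CRE, green) in Dusp1 and the CArG box (purple) in Dusp5, while the NF-κB pattern (grey) is in 7 of 8.

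The deposited values were log2 intensities for 22206 tested probe sets per array, with no detection calls. Control separation, by which positive control probe sets exceeded negative ones on average, was 3.65 to 5.26 log2 units and lay under 4 on 6 arrays, all in set A below. The macrophage markers lay high everywhere: 8 of 8 matched markers were above the array's lower quartile on every array, and their mean ran from 14.8 to 16.2. Neutrophil markers averaged 5.67 to 5.87 in HMB+LPS, 4.42 to 6.03 in LPS, 3.54 to 4.28 in HMB and 3.45 to 4.02 in Ctrl, so this list moved with LPS. Mmp8 and S100a8, which macrophages can also express, carried that shift, while the granule genes Elane, Mpo, Ngp, Camp and Ltf lay between 1.95 and 4.33 on all arrays. Fibroblast markers averaged 5.56 to 7.50 in HMB+LPS, 4.86 to 7.55 in LPS, 5.07 to 7.49 in HMB and 4.95 to 6.83 in Ctrl. Within set A, defined below, 2 of the 7 matched genes of that list (Dcn and Lum) rose and 3 (Col1a1, Col1a2 and Col3a1) fell in both LPS contrasts, and Dcn reached 12.78 in HMB+LPS and 12.64 in LPS, against at most 5.00 in HMB and 4.56 in Ctrl. The part of both lists in the results below was not tested. Lists of dendritic cell, lymphocyte and mast cell markers stayed between 3.30 and 4.91 on average. Between M0 arrays of numbers 5 and 6 and M0 arrays of numbers 1 to 4, 4271 probe sets differed. Each array was placed along that difference with 3216 probe sets. These left out the 9 genes, the pathway genes below and any probe set that responded to LPS over all arrays at an unadjusted p of 0.05 or less. Probe sets that responded on only some arrays could remain, so the sets need not be independent of the response to LPS. P-values within and between sets carry that limit. The arrays fell into 14 (set A, positions up to 0.30) and 8 (set B, positions from 0.77). Set B held 2 arrays of each group: HMB+LPS 5 and 6, LPS 3 and 6, HMB 5 and 6, and Ctrl 5 and 6. The data, not the study's design, define these sets. On arrays with LPS, set and strength of the response cannot be told apart, so the LPS and HMB differences of the 9 genes are given over all arrays and within each set. The 8 arrays of set B had a control separation of 4.92 ± 0.13 (SD), against 4.30 ± 0.52 (SD) for the 14 of set A.

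Socs3, Socs1 and Cish had the 3 largest LPS differences of the 9 genes, and Socs3 and Socs1 passed the threshold of an adjusted p below 0.05. Socs3 was at 12.57, 4.80, 14.46, 13.21 and 4.30 (log2) on the arrays LPS 2 to 6. In Ctrl it ran from 3.18 to 4.56, with a median of 4.04. The LPS arrays thus split into 3 high arrays and 2 low ones, LPS 3, which lay just above the highest Ctrl array, and LPS 6, which lay within the Ctrl range. The difference, LPS minus Ctrl, was 5.96 ± 1.55 log2 units (SE, limma over all probe sets, adjusted p = 0.0485). With HMB present, Socs3 was at 12.48, 13.60, 14.46, 7.43 and 7.66 in HMB+LPS 2 to 6 and between 3.76 and 4.93, with a median of 4.52, in HMB. Here the groups did not overlap, since even the lowest HMB+LPS arrays, numbers 5 and 6, stood above every HMB array. The difference was 6.74 ± 1.55 (adjusted p = 0.0146).

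Socs1 followed the same arrays. It was at 9.07, 5.48, 11.76, 10.74 and 5.81 in LPS 2 to 6, against 2.62 to 5.52 with a median of 3.18 in Ctrl. Only LPS 3, of the LPS arrays, lay below the highest Ctrl array. The rise was 4.89 ± 1.06 (adjusted p = 0.0184). In HMB+LPS it was at 9.46, 10.61, 12.00, 6.18 and 6.62, against 3.05 to 5.03 with a median of 3.79 in HMB, again with no overlap between both groups. That rise was 4.99 ± 1.06 (adjusted p = 0.00863).

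Cish, the founding SOCS family member and a STAT5 target, had 9.84, 4.36, 8.08, 7.77 and 3.08 in LPS 2 to 6, against 2.76 to 4.55 in Ctrl. The 3 arrays that were high for Socs3 were again high and the other two lay within the Ctrl range. Its difference was 2.80 ± 0.91 (adjusted p = 0.125). In HMB+LPS it was at 8.79, 8.41, 8.31, 5.83 and 5.23, against 2.96 to 5.25 in HMB, a difference of 3.10 ± 0.91 (adjusted p = 0.061). Neither passed the threshold of 0.05. Socs2, an inhibitor of growth hormone signalling, was at 7.96, 6.09, 8.09, 8.01 and 7.20 in LPS and between 4.38 and 7.58 in Ctrl, a difference of 1.28 ± 0.48 (adjusted p = 0.194). It lay between 6.98 and 8.46 in HMB+LPS and between 6.14 and 7.94 in HMB, with overlap, and differed by 0.59 ± 0.48 (adjusted p = 0.646).

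None of the 5 DUSP genes passed the threshold for LPS over all arrays. Dusp6 had the largest DUSP difference, 2.10 ± 1.17 for LPS minus Ctrl and 2.40 ± 1.17 for HMB+LPS minus HMB (adjusted p = 0.439 and 0.33). Dusp5 was at 10.33, 9.36, 10.14, 8.15 and 8.88 in HMB+LPS 2 to 6, against 7.67 to 8.74 in HMB, and only HMB+LPS 5 fell within the HMB range. Its difference was 1.22 ± 0.36 (adjusted p = 0.0654), and 0.83 ± 0.36 for LPS minus Ctrl (adjusted p = 0.291). Dusp16 ran from 10.05 to 12.91 in HMB+LPS, 9.71 to 12.66 in LPS, 9.69 to 10.68 in HMB and 9.76 to 10.36 in Ctrl, with differences of 0.98 for both contrasts (adjusted p = 0.314 with HMB and 0.339 without). Dusp2 was 1.16 ± 0.38 higher in LPS than in Ctrl (adjusted p = 0.134) and 0.60 ± 0.38 higher in HMB+LPS than in HMB (adjusted p = 0.51). Dusp1 differed least, by 0.53 ± 0.37 for LPS minus Ctrl and 0.21 ± 0.37 for HMB+LPS minus HMB (adjusted p = 0.562 and 0.87), and lay between 13.71 and 16.04 on all 22 arrays.

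Over all arrays, 2 of the 9 genes rose with LPS alone (Socs1 and Socs3), beside 1.08% of the 22206 tested probe sets that rose, and 0 fell, beside 0.788%. The same 2 rose with LPS in the presence of HMB, beside 1.99% of all probe sets, and 0 fell, beside 1.54%. These were also the only 2 whose HMB+LPS arrays all lay above all HMB arrays, beside 2.18% of all probe sets. No gene of the 9 had LPS arrays all above Ctrl, beside 1.26%. The difference was positive for 9 of 9 genes in both contrasts, with medians of 1.28 (LPS minus Ctrl) and 1.22 (HMB+LPS minus HMB), beside medians of all probe sets of 0.00096 and −0.0059. The call for Socs1 with LPS alone was lost without LPS 2, LPS 4 or LPS 5 (adjusted p from 0.061 to 0.0847), and that for Socs3 held in only 5 of the 22 fits that left out 1 array, its difference ranging from 4.81 to 7.35. With HMB present Socs1 passed in all 22 such fits and Socs3 in 20, the exceptions being those without HMB+LPS 3 (6.12, adjusted p = 0.0575) and HMB+LPS 4 (5.91, adjusted p = 0.0627). Without the 6 arrays of low control separation, 0 of the 9 passed in either contrast. These were HMB+LPS 2 and 3, LPS 2 and 5, HMB 1 and Ctrl 1. Of set A, that setting left only HMB+LPS 4 and LPS 4 among the arrays with LPS, beside those of set B. The loss of calls can therefore not be ascribed to control separation alone.

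**Figure D2:**
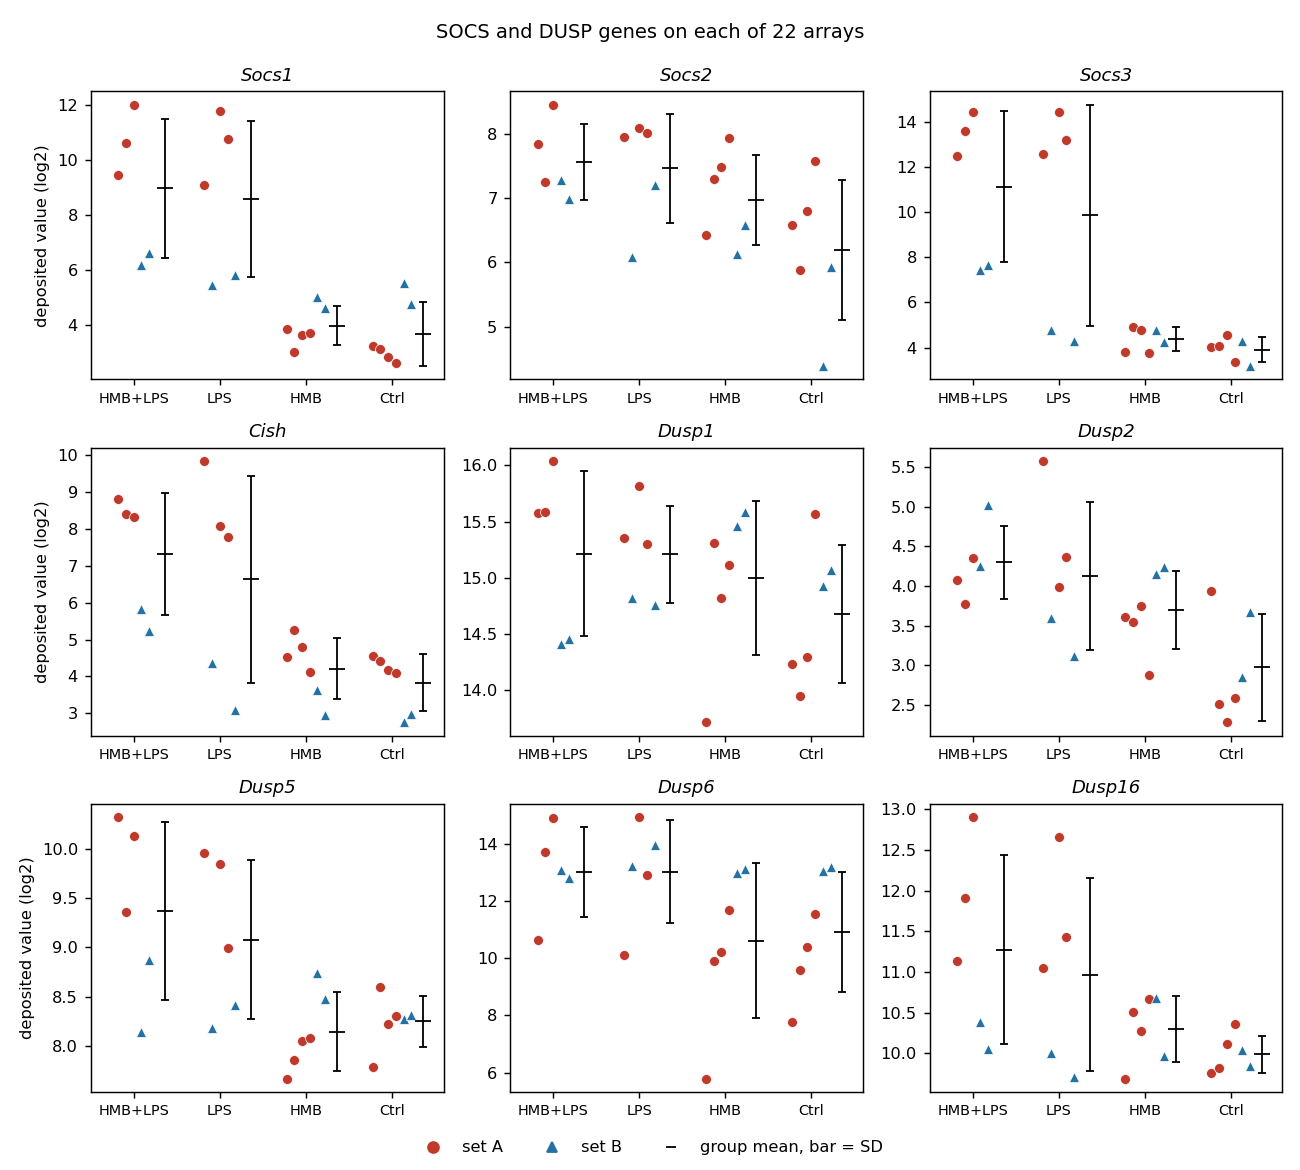
Deposited log2 value of each gene (vertical axis) on every array, by group (horizontal axis, HMB+LPS, LPS, HMB and Ctrl from left to right), with the mean and SD of each group at its right. In the 10 arrays with LPS, set A (red circles, 6 arrays) carried Socs3 at 12.48 to 14.46 and set B (blue triangles, 4 arrays) at 4.30 to 7.66.

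Within set A the LPS differences were larger and more of the brakes passed. Socs3 lay between 12.48 and 14.46 on the 6 set A arrays with LPS and between 3.36 and 4.93 on the 8 without. Its difference was 9.41 ± 0.52 for LPS minus Ctrl and 9.19 ± 0.52 for HMB+LPS minus HMB (adjusted p = 1.87e-08 and 2.36e-08). Socs1 lay between 9.07 and 12.00 with LPS and between 2.62 and 3.88 without, and rose by 7.57 ± 0.58 and 7.12 ± 0.58 in these contrasts (adjusted p = 5.3e-07 and 1.03e-06). Cish lay between 7.77 and 9.84 with LPS and between 4.09 and 5.25 without, and rose by 4.25 ± 0.42 and 3.83 ± 0.42 (adjusted p = 6.8e-06 and 1.97e-05). Within set A, 7 of the 9 genes were higher without overlap for LPS minus Ctrl (all but Dusp1 and Dusp6), beside 8.94% of all probe sets, and 7 of 9 for HMB+LPS minus HMB (all but Socs2 and Dusp6), beside 9.36%. The calls of Socs3, Socs1 and Cish held without each of the 14 arrays in turn.

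Of the phosphatases, 3 passed within set A as well. Dusp5, the nuclear ERK phosphatase, rose by 1.37 ± 0.31 for LPS minus Ctrl and by 2.03 ± 0.31 for HMB+LPS minus HMB (adjusted p = 0.0093 and 0.000513). Dusp16, the JNK phosphatase, rose by 1.70 ± 0.43 in both (adjusted p = 0.0184 without HMB and 0.0199 with it). Dusp2 rose by 1.81 ± 0.43 for LPS minus Ctrl (adjusted p = 0.0116), and differed by 0.62 ± 0.43 for HMB+LPS minus HMB (adjusted p = 0.47). In all, 6 of the 9 genes rose for LPS minus Ctrl within set A, beside 4.22% of all probe sets, and 5 of 9 for HMB+LPS minus HMB, beside 4.46%. None fell in either, beside 6.33% and 5.82%. Without LPS 2 the calls of Dusp2 and Dusp5 for LPS minus Ctrl were lost (adjusted p = 0.072 and 0.0524), and Dusp16 was lost without LPS 4 or Ctrl 2 (adjusted p = 0.0832 and 0.0519) and, for HMB+LPS minus HMB, without HMB+LPS 3 or 4 (adjusted p = 0.0613 and 0.112). Socs2 (1.30 ± 0.42, adjusted p = 0.0613) and Dusp1 (0.98 ± 0.41, adjusted p = 0.167) did not pass for LPS minus Ctrl within set A.

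Within set B, with 2 arrays per group, LPS alone gave 0 of 9 calls (limma), beside 0.509% of all probe sets that rose. At an unadjusted p under 0.05 the count was 1 of 9, beside 2320 of the 22206 probe sets in either direction. Socs3 was at 4.80 and 4.30 in LPS and at 4.30 and 3.18 in Ctrl, a difference of 0.82 ± 0.40 (adjusted p = 0.562). Socs1 was at 5.48 and 5.81 in LPS and at 5.52 and 4.77 in Ctrl (0.50 ± 0.32, adjusted p = 0.673). Neither difference passed. With HMB present, 4 of the 9 genes passed within set B. Socs3 was at 7.43 and 7.66 in HMB+LPS and at 4.79 and 4.24 in HMB, and rose by 3.03 ± 0.40 (adjusted p = 0.00999). Cish was at 5.83 and 5.23 in HMB+LPS and at 3.64 and 2.96 in HMB, and rose by 2.23 ± 0.46 (adjusted p = 0.0419). Socs1 was at 6.18 and 6.62 in HMB+LPS and at 5.03 and 4.61 in HMB, and rose by 1.58 ± 0.32 (adjusted p = 0.0397). Dusp1 was the 1 gene to fall. It was at 14.41 and 14.46 in HMB+LPS and at 15.47 and 15.58 in HMB, a difference of −1.09 ± 0.16 (adjusted p = 0.0144). In all, 3 of 9 rose, beside 2.89% of all probe sets, and 1 of 9 fell, beside 2.72%. These calls rest on few arrays: without HMB 5, HMB 6 or HMB+LPS 6 the count was 0, and without HMB+LPS 5 it was 1, each fit leaving 1 group with 1 array.

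The LPS difference itself differed between the sets for the SOCS genes. Since the sets need not be independent of the response to LPS, the p-values of this comparison are limited by that. In a limma fit of the 8 means of group and set, set B minus set A of the difference LPS minus Ctrl was −8.60 ± 0.80 log2 units for Socs3 (adjusted p = 1.83e-06), −7.07 ± 0.87 for Socs1 (adjusted p = 5.72e-05) and −3.40 ± 0.68 for Cish (adjusted p = 0.00655). For HMB+LPS minus HMB the set difference was −6.16 ± 0.80 for Socs3 (adjusted p = 0.000161), −5.55 ± 0.87 for Socs1 (adjusted p = 0.00108) and −2.13 ± 0.48 for Dusp5 (adjusted p = 0.0213). Thus 3 of the 9 genes passed in each contrast, beside 1.23% and 0.743% of all probe sets that differed in this direction. Socs2 stood apart from the other SOCS genes here, with set differences of 0.19 ± 0.72 and 0.21 ± 0.72 (adjusted p = 0.955 and 0.957). Cish no longer passed without LPS 6 (−2.76, adjusted p = 0.0811), nor Dusp5 without HMB+LPS 5, HMB 5 or HMB 6 (adjusted p = 0.176, 0.133 and 0.0711).

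**Figure D3:**
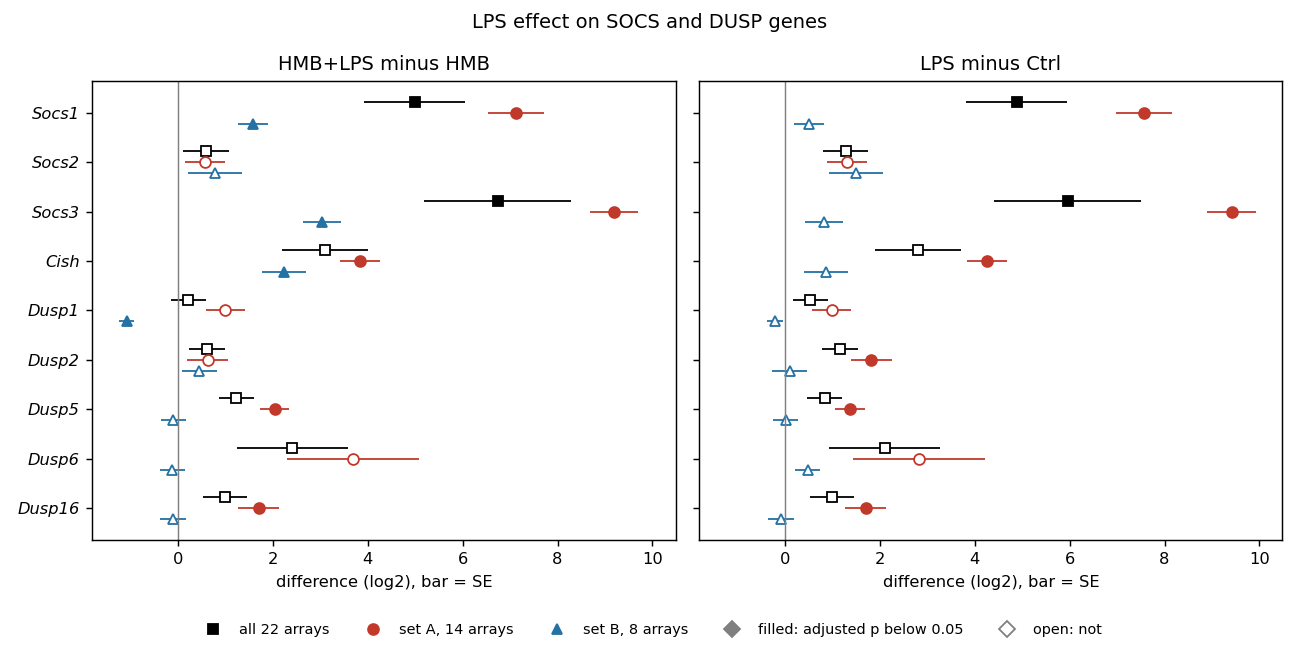
LPS difference of each gene with HMB present (left) and without (right), in log2 units on the horizontal axis with SE, over all 22 arrays (black squares), within set A (red circles) and within set B (blue triangles). Filled symbols passed at an adjusted p below 0.05. Socs3 sat at 9.19 and 9.41 in set A and at 3.03 and 0.82 in set B.

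Levels without LPS already differed between the sets for some of the brakes, given here as a description with no test. Socs1 was higher on the M0 arrays of set B, 4.98 ± 0.40 (SD, n = 4) against 3.26 ± 0.44 in set A (SD, n = 8), with no overlap. Cish was lower, 3.08 ± 0.38 in set B and 4.49 ± 0.39 in set A, likewise with no overlap. Dusp6 was at 13.08 ± 0.09 in set B and at 9.61 ± 1.97 in set A, again with no overlap. Thus 2 of 9 were higher without overlap, beside 10.1% of all probe sets, and 1 of 9 lower, beside 6.08%. Socs3 was at 4.13 ± 0.68 and 4.16 ± 0.55, and its sets overlapped. Low values limit comparisons of 4 genes. Below the lower quartile of all probe sets lay Socs1 on 6 of 22 arrays and Socs3 on 3, all of them M0 arrays, Cish on 4 M0 arrays and 1 LPS array, and Dusp2 on 7 M0 arrays and 2 LPS arrays. The other 5 genes lay below it on no array.

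Dusp6, the cytoplasmic ERK phosphatase, varied most among the DUSP genes within groups. It was at 10.62, 13.71, 14.90, 13.08 and 12.78 in HMB+LPS 2 to 6 and at 10.10, 13.23, 14.93, 12.91 and 13.94 in LPS 2 to 6. In HMB it ran from 5.80 to 13.13 with a median of 10.95, and in Ctrl from 7.77 to 13.18 with a median of 10.97. The highest values were those of HMB+LPS 4 and LPS 4, and in M0 cells those of the 4 arrays of set B. In each of the 4 groups its lowest array was also the one of lowest control separation: HMB+LPS 2 (separation 3.82), LPS 2 (3.65), HMB 1 (3.78) and Ctrl 1 (3.96). For the other 8 genes this held in at most 2 of the 4 groups. Arrays of nearly the same separation were higher, however: HMB+LPS 3 (separation 3.83) was at 13.71 and LPS 5 (3.71) at 12.91. Its difference for LPS minus Ctrl was 2.82 ± 1.39 within set A and 0.47 ± 0.27 within set B (adjusted p = 0.243 and 0.624). The part of control separation in these values was not tested.

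**Figure D4:**
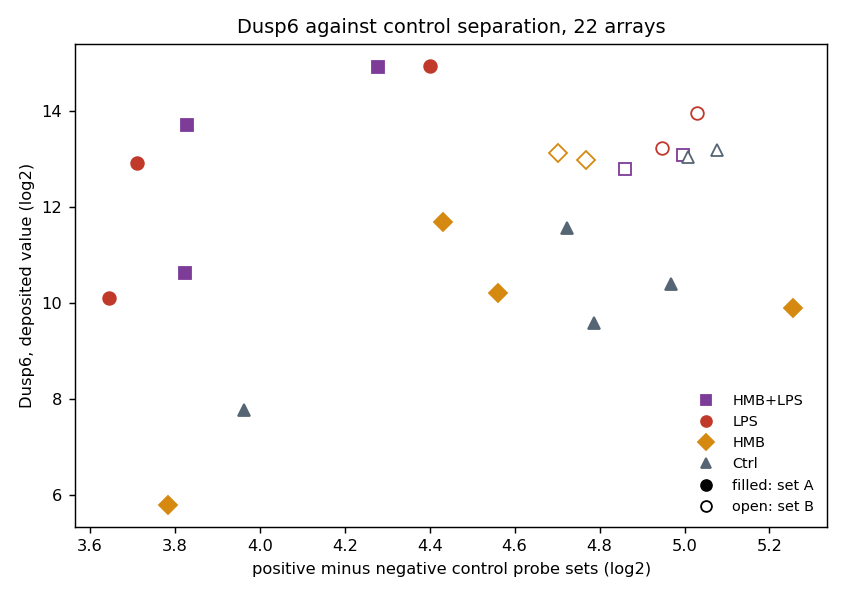
Dusp6 (log2, vertical axis) against the separation of positive from negative control probe sets (log2, horizontal axis) on 22 arrays, marked by group (symbol) and set (filled for A, open for B). The 4 lowest-separation arrays of their groups, between 3.65 and 3.96, carry the lowest Dusp6 value of each group, and the 4 M0 arrays of set B lie between 12.98 and 13.18. HMB+LPS 3 and LPS 5, with separations of 3.83 and 3.71, lie at 13.71 and 12.91.

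HMB in M0 cells changed none of the 9 genes past the threshold. The limma count was 0 of 9, beside 0% of all 22206 probe sets (adjusted p = 0.9999 for each). At an unadjusted p under 0.05 the count was also 0 of 9, beside 410 of the 22206 probe sets. The widest differences, HMB minus Ctrl, were 0.78 ± 0.45 for Socs2 and 0.72 ± 0.36 for Dusp2. HMB and Ctrl arrays of the same number deviated together, so differences by number were taken. This likeness was weak for numbers 2, 3 and 4 (r = 0.18, 0.24 and 0.31) and larger for numbers 1, 5 and 6 (r = 0.63, 0.61 and 0.62). Socs2 differed by −0.16, 1.42, 0.68, 0.36, 1.75 and 0.65 for numbers 1 to 6, and Dusp2 by −0.34, 1.03, 1.47, 0.30, 1.30 and 0.57. Both were higher with HMB in 5 of 6 pairs, number 1 being the exception. Socs3 was higher in 5 of 6 pairs as well, by 0.47 ± 0.46 on average (SD, n = 6), and Dusp16 in 5 of 6, by 0.31 ± 0.30. Cish and Dusp1 were higher in 4 of 6 pairs, Socs1 in 3, and Dusp5 and Dusp6 in 2. Dusp6 differed from its Ctrl partner by −0.18 to 0.31 in 5 pairs and by −1.97 in number 1, the pair with the lowest control separation in both groups. With the number as a block, 0 of 9 passed. Within set B, Socs2 differed by 1.20 ± 0.56 and Dusp2 by 0.94 ± 0.37 (limma, adjusted p = 0.377 and 0.297). There 0 of 9 passed, beside 0.482% of all probe sets. At an unadjusted p under 0.05 the count was 2 of 9, beside 3452 of the 22206 probe sets.

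HMB in LPS-treated cells left the 9 genes within the spread of the arrays when both sets were pooled. For HMB+LPS minus LPS, 0 of 9 passed (limma), beside 0% of all probe sets. At an unadjusted p under 0.05 the count was also 0 of 9, beside 686 of the 22206 probe sets. Differences ran from −0.0024 for Dusp6 to 1.26 ± 1.62 for Socs3. Within set A they stayed small, 0.10 ± 0.55 for Socs3, 0.17 ± 0.62 for Socs1 and −0.06 ± 0.45 for Cish (adjusted p = 1 for each), and 0 of 9 passed beside 0% of all probe sets. Within set B, Socs3 was at 7.43 and 7.66 in HMB+LPS against 4.80 and 4.30 in LPS, and rose by 2.996 ± 0.40 (adjusted p = 0.0202), 1 of 9 beside 2.2% of all probe sets that rose. Cish was at 5.83 and 5.23 against 4.36 and 3.08 in LPS (1.81 ± 0.46, adjusted p = 0.0733), and Dusp2 at 4.25 and 5.03 against 3.59 and 3.12 (1.28 ± 0.37, adjusted p = 0.0991). In set B the HMB+LPS arrays lay above the LPS arrays for 5 of the 9 genes (Socs1, Socs3, Cish, Dusp2 and Dusp16), beside 23.8% of all probe sets. They lay below them for 2 of the 9 (Dusp1 and Dusp6), beside 28.1%. Of the marker lists, 2 of 8 neutrophil and 1 of 7 fibroblast markers (Col1a2, 1.65, adjusted p = 0.0378) rose in this contrast too, and their part in the result was not tested. The Socs3 call was lost without any 1 of HMB+LPS 5, HMB+LPS 6, LPS 3 and LPS 6, which leaves a group with 1 array that is taken to vary like the others. The difference between the sets in this HMB effect, 2.90 ± 0.82, did not pass (limma, adjusted p = 0.276). The difference between both HMB effects passed for 0 of 9, beside 0% of all probe sets. At an unadjusted p under 0.05 it also gave 0 of 9, beside 465 of the 22206 probe sets.

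**Figure D5:**
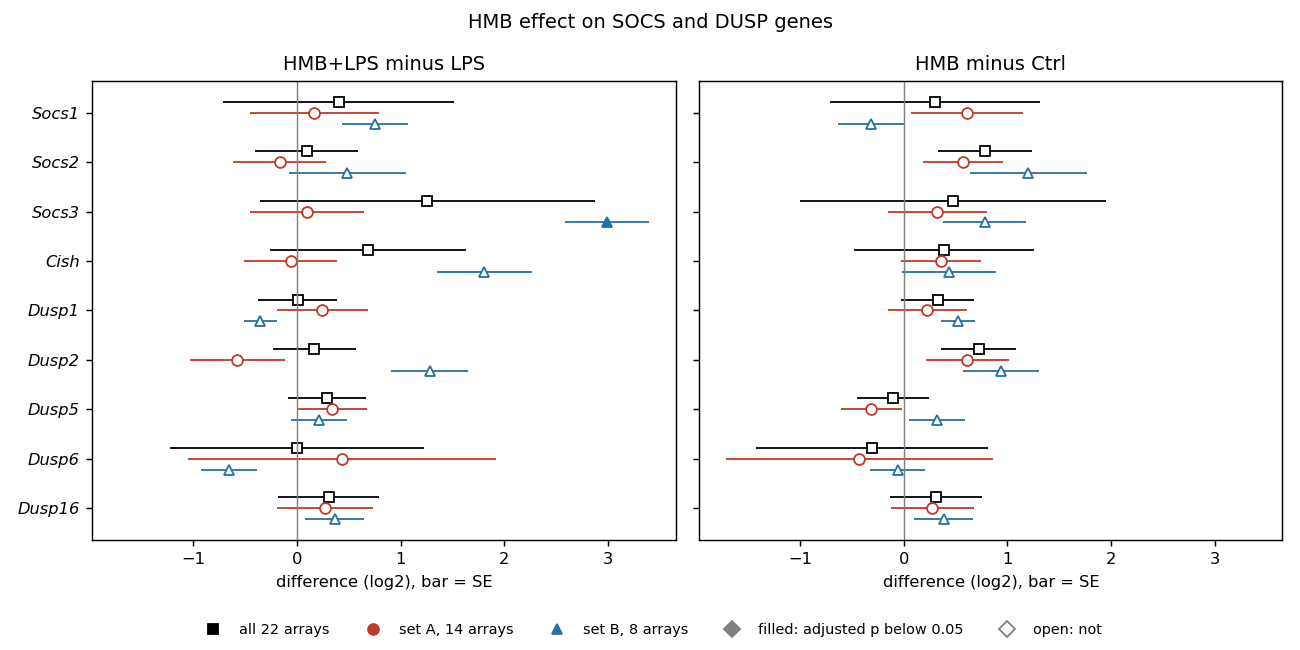
HMB difference of each gene with LPS present (left) and without (right), in log2 units with SE on the horizontal axis, over all arrays (black squares), set A (red circles) and set B (blue triangles). The 1 filled symbol, which marks an adjusted p below 0.05, is Socs3 in set B at 2.996.

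Genes upstream and downstream of the SOCS brakes were read from lists of their pathway. For LPS minus Ctrl the shares of all probe sets to set beside these counts are 1.08% up and 0.788% down over all arrays, 4.22% and 6.33% within set A, and 0.509% and 0.045% within set B. For HMB+LPS minus HMB they are 1.99% and 1.54%, 4.46% and 5.82%, and 2.89% and 2.72%. Of 15 ligands that signal through JAK and STAT, 3 rose within set A in both contrasts (Il6, Osm and Il7), and within set B 0 for LPS minus Ctrl and 2 for HMB+LPS minus HMB (Csf1 and Ebi3). Over all arrays 0 rose for LPS minus Ctrl and 1 for HMB+LPS minus HMB, the lymphoid growth factor Il7 (1.77 ± 0.43, adjusted p = 0.0226). Il6, whose signal Socs3 restrains, differed by 6.43 ± 1.95 and 6.38 ± 1.95 (adjusted p = 0.0969 and 0.0726). Like Socs3, Il6 was higher with LPS in set A than in set B. It lay between 12.50 and 15.09 in HMB+LPS and between 11.69 and 14.33 in LPS of set A. In set B it was at 3.43 to 3.44 and 3.59 to 4.10, and at most 3.88 in any M0 array. Unlike Socs3, which was at 7.43 and 7.66 in HMB+LPS of set B, Il6 was not above the LPS arrays there. Il10, Ifnb1 and Csf2 differed by −0.27, 0.32 and −0.06 for LPS minus Ctrl (adjusted p = 0.806, 0.651 and 0.963). Of 20 receptor chains matched, 1 rose and 1 fell for LPS minus Ctrl over all arrays, and 3 rose for HMB+LPS minus HMB. Within set A, 6 rose (Ifnar1, Ifngr2, Il4ra, Il13ra1, Csf2rb and Il15ra) and 3 fell (Il10ra, Lifr and Il7r) in both contrasts. Within set B 0 passed for LPS minus Ctrl, and 2 rose and 1 fell for HMB+LPS minus HMB. Over all arrays the interleukin 4 receptor chain Il4ra rose in both (1.89 ± 0.42 and 1.98 ± 0.42, adjusted p = 0.0213 and 0.00855). The receptor chain of leukaemia inhibitory factor, Lifr, fell by 2.58 ± 0.65 with LPS alone (adjusted p = 0.0406). Il13ra1 (1.57) and the shared β chain Csf2rb (2.25) rose with LPS in the presence of HMB (adjusted p = 0.0271 and 0.0317).

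Among 9 matched JAKs and STATs, Jak2 rose for HMB+LPS minus HMB over all arrays (2.84 ± 0.75, adjusted p = 0.0358) and none passed for LPS minus Ctrl. Within set A, 1 rose for LPS minus Ctrl and 2 for HMB+LPS minus HMB, and within set B likewise 1 and 2. Within set A, Jak2 rose by 3.96 ± 0.26 with HMB and by 3.78 ± 0.26 without (adjusted p = 1.21e-07 and 2.04e-07). Over all arrays, for HMB+LPS minus HMB and for LPS minus Ctrl, Stat3 differed by 0.91 ± 0.26 and 0.66 ± 0.26 (adjusted p = 0.0517 and 0.216) and Stat5a by 0.33 and −0.27 (adjusted p = 0.749 and 0.797). Of 12 other inhibitors of the pathway, the interferon feedback protease Usp18 rose over all arrays for HMB+LPS minus HMB (2.58 ± 0.68, adjusted p = 0.0335), and none passed for LPS minus Ctrl. Usp18 also rose within set B in both contrasts, while within set A the ubiquitin ligase Cbl was the 1 gene of this list to rise. The adaptor Sh2b3 fell within set A for LPS minus Ctrl and within set B for HMB+LPS minus HMB. Of 11 matched STAT target genes, 3 rose for LPS minus Ctrl and 4 for HMB+LPS minus HMB over all arrays. Within set A 5 and 6 rose, and within set B 2 and 4, where 1 also fell with HMB present. Il4ra, counted above among the receptor chains, is in this list too and was among the genes that rose over all arrays. Over all arrays the checkpoint ligand Cd274 rose by 3.36 ± 0.69 and 3.86 ± 0.69 (adjusted p = 0.0117 and 0.0018) and the NF-κB cofactor Bcl3 by 1.47 ± 0.34 and 1.93 ± 0.34 (adjusted p = 0.0264 and 0.00159). The interferon-induced GTPase Gbp2 rose by 3.21 ± 0.60 for HMB+LPS minus HMB (adjusted p = 0.00294). The median of this list was 1.47 for LPS minus Ctrl and 1.52 for HMB+LPS minus HMB.

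Of the remaining SOCS genes, none passed as higher with LPS. Of Socs4, Socs5, Socs6 and Socs7, 0 passed for LPS minus Ctrl over all arrays (list median −0.67), and Socs5 fell for HMB+LPS minus HMB (−1.33 ± 0.29, adjusted p = 0.0109). Within set A, Socs5 and Socs6 fell in both contrasts, with differences of −1.35 ± 0.28 and −1.83 ± 0.33 for LPS minus Ctrl (adjusted p = 0.00471 and 0.00179), while Socs4 differed by 0.86 ± 0.29 (adjusted p = 0.0807). Within set B 0 of the 4 passed. The SOCS family thus held genes that rose and genes that fell on the same arrays. Of 8 other dual-specificity phosphatases, none passed as higher, and over all arrays Dusp22 fell by 2.45 ± 0.58 for LPS minus Ctrl and by 2.91 ± 0.58 for HMB+LPS minus HMB (adjusted p = 0.0305 and 0.00506). Within set A, Dusp8, Dusp9 and Dusp22 fell in both contrasts, and within set B 0 of the 8 passed.

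The MAP kinase modules hold the kinases that DUSP proteins act on. Of 18 matched genes, 0 passed over all arrays in either LPS contrast (limma, medians 0.19 and 0.12). Within set A, Map2k6, an activator of p38, rose by 3.82 ± 0.73 for LPS minus Ctrl and by 3.34 ± 0.73 for HMB+LPS minus HMB (adjusted p = 0.00265 and 0.00742), and Map3k1 fell for HMB+LPS minus HMB. Within set B, Map2k6 fell for HMB+LPS minus HMB (−1.47, adjusted p = 0.0318). Over all arrays Mapk14, which encodes p38α, differed by −0.26 and −0.03 (adjusted p = 0.668 and 0.976). Of 18 MAP kinase target genes, 1 rose and 1 fell in each contrast over all arrays. Within set A, 2 rose in each (Ier3 and Phlda1), 2 fell for LPS minus Ctrl and 1 for HMB+LPS minus HMB. Within set B 0 passed for LPS minus Ctrl, and 1 rose and 3 fell for HMB+LPS minus HMB. Over all arrays the survival gene Ier3 rose by 3.90 ± 0.85 for LPS minus Ctrl and by 4.59 ± 0.85 for HMB+LPS minus HMB (adjusted p = 0.0182 and 0.00261). Egr1, an immediate early transcription factor, fell by 1.41 ± 0.31 and 1.22 ± 0.31 (adjusted p = 0.0182 and 0.0255). Fos differed by 0.52 and 0.47 (adjusted p = 0.679 and 0.727). Of 10 other brakes on ERK, among them the Sprouty and Spred genes, 0 passed over all arrays or within set B (limma). Within set A, Rasa2 rose in both contrasts and Spred2 for HMB+LPS minus HMB.

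Genes with the profile most like each brake were ranked by the mean absolute difference between log2 profiles over 22 arrays, each centred on its mean, which describes likeness only. Nearest to Socs3 were Arg1, Cxcl3 and Upp1 (0.56, 0.56 and 0.66 log2 units), and nearest to Socs1 were Mmp10, Inhba and Glis3 (0.51, 0.69 and 0.69). Cish lay nearest to Jak2 (0.48), then Glipr2 and Lox. Socs3 and Socs1 themselves were 1.25 log2 units apart by this measure. Socs2 was nearest to Pigs, Il15 and Ifitm3 (0.43 to 0.45), and Dusp6 to Chst1, Sqle and Tfrc (0.74 to 0.76), the least close match of the 9. Dusp16 was nearest to Samsn1, Smox and Nabp1 (0.28 to 0.33), Dusp5 to Ginm1, Pgk1 and Acvr1b (0.26 to 0.28), Dusp1 to Plekhj1, Fhl3 and Bnip3l (0.25 to 0.29) and Dusp2 to Slc5a6, Lpin2 and Mdm2 (0.36 to 0.39).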

How the data were processed

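RNA of mouse BMDM was hybridised to 22 Clariom S arrays. The authors deposited 1 table of log2 values, 1 column per array, from 0.97 to 19.44. For background correction, normalization and software, the sources used here name none. Of 28846 probe sets, 6640 were controls and 22206 were tested as deposited. The platform annotation pairs 19572 of them with 1 gene symbol, 0 with several and 2634 with none here. Arrays give no read depth, and their number limits the precision.

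Comparisons used limma 3.58.1 in R 4.3.3 (4 group means in 1 fit of all arrays, two-sided, Benjamini-Hochberg adjustment over all 22206 probe sets, threshold 0.05). Errors of differences are standard errors. The fit was tested on simulated data. Set A and set B were compared in a fit of 8 means. The 9 genes and the pathway lists were chosen with earlier results of these data known. Pathway genes named over all arrays were, per list and LPS contrast, up to 3 with the smallest adjusted p past the threshold. Il6, Il10, Ifnb1, Csf2, Stat3, Stat5a, Mapk14, Fos and Egr1 were named as values. Others were named where they passed within set A or set B, and the list of remaining SOCS genes was named in full.

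Pairing by replicate number was checked by correlating deviations from group means over all tested probe sets. The labels state no pairing. All 6 HMB and Ctrl pairs exceeded 0.1 (r = 0.627, 0.183, 0.244, 0.307, 0.608 and 0.623). In the other contrasts some pairs did and some did not. HMB+LPS and LPS gave 0.615, 0.545 and 0.600 for numbers 2, 4 and 6, but −0.515 for number 3 and −0.516 for number 5. No 2 arrays held the same values (highest r between arrays 0.992). The design text of the series speaks of 5 samples per group, whereas the labels give 6 for HMB and Ctrl. Alternatives covered scaling, filtering, the variance model, blocks, sets and left-out arrays. The leave-one-out fits within sets were added after the data had been seen.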

Additional observations from a re-analysis of the deposited data

Results flagged for a closer look

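The LPS difference of 3 genes in each contrast differed between the array sets by the test of that difference (limma, fit of 8 means, set B minus set A). For LPS minus Ctrl it was −7.07 for Socs1, −8.60 for Socs3 and −3.40 for Cish (adjusted p = 5.72e-05, 1.83e-06 and 0.00655). For HMB+LPS minus HMB it was −5.55 for Socs1, −6.16 for Socs3 and −2.13 for Dusp5 (adjusted p = 0.00108, 0.000161 and 0.0213). Set B has 2 arrays per group, and the arrays LPS 3 and LPS 5 deviated from their group unlike the HMB+LPS arrays of the same number. A check for 1 array apart from the rest of its group flagged none of the 36 combinations of gene and group. It does not speak to a split of a group, such as that of Socs3 in LPS. Nor does it mean that groups were tight: Dusp6 was at 5.80 on HMB 1 and at 9.89 to 13.13 on the other HMB arrays.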

How the results depend on the processing

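Over the alternatives other than leaving out 1 array, 483 single-gene values kept their direction and side of the threshold, 30 passed it anew, 13 no longer passed and 23 turned sign, 22 of these for genes not called in either fit. The exception was Dusp1 for HMB+LPS minus HMB. The cause was not tested. Of the 9 genes, 2 were called for LPS minus Ctrl. That count was 0 with only the 2 groups compared, without arrays of low control separation, within set B and by the methods' test after adjustment (117, 38, 123 and 9 probe sets called in all). It was 1 with only probe sets above the negative controls, with trend and robust eBayes and with array weights (550, 424 and 230 in all). It was 4 with the set as a block and as the average of both sets in the fit of 8 means, 6 within set A and 5 by the methods' test unadjusted (1482, 1383, 2341 and 2809 in all). With 2 called for HMB+LPS minus HMB, the count was 4 with array weights, with the set as a block, within set B, in the fit of 8 means and by the methods' test unadjusted (1683, 1982, 1245, 1928 and 3335 in all). It was 5 within set A, 0 without arrays of low control separation and 1 by the methods' test adjusted (2283, 357 and 423 in all). Within set B it was 1 for HMB+LPS minus LPS (1043 in all). The set difference of LPS minus Ctrl gave 1 gene in place of 3 with only probe sets above the negative controls (918 in all). That filter keeps 6 of the 9 genes and takes Socs1, Cish and Dusp2 out of the fit, so both counts under it fell because these genes were not tested. Without arrays of low control separation, Socs1 and Socs3 differed by 3.91 and 3.97 for LPS minus Ctrl (adjusted p = 0.394 and 0.528). That setting kept LPS 4 as the only set A array of its group, and HMB+LPS 4 likewise.

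Signs turned as follows. For HMB+LPS minus LPS, Dusp6 was 0.014 with median centring, 0.015 with array weights and 0.43 within set A, and Dusp1 was −0.031 with quantile normalization, −0.35 within set B, −0.053 in the fit of 8 means and −0.16 without arrays of low control separation. Within set A, Socs2 was −0.17, Cish −0.061 and Dusp2 −0.58. For HMB minus Ctrl, Dusp6 was 0.0074 with array weights and 0.028 without arrays of low control separation, Socs1 −0.32 and Dusp5 0.32 within set B, and Dusp5 0.0029 in the fit of 8 means. Within set B, LPS minus Ctrl was −0.21 for Dusp1 and −0.0896 for Dusp16, and HMB+LPS minus HMB was −1.09 for Dusp1, −0.10 for Dusp5, −0.12 for Dusp6 and −0.11 for Dusp16. Dusp1 for HMB+LPS minus HMB was −0.047 in the fit of 8 means and −0.29 without arrays of low control separation. Scaling moved the median of all probe sets by at most 0.068.

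Leaving out 1 array at a time gave 0 to 4 calls for LPS minus Ctrl (0 without LPS 2, 4 or 5, and 4 without LPS 6) and 1 to 4 for HMB+LPS minus HMB, and 0 for either HMB contrast and for the difference between them. It gave 2 to 3 and 2 to 4 calls for the set differences of LPS minus Ctrl and of HMB+LPS minus HMB. Within set A it gave 4 to 8 and 4 to 5 for these LPS contrasts, and within set B 0 and 0 to 3, with 0 to 1 for HMB+LPS minus LPS. Values that turned sign ranged from −0.043 to 0.41 (Dusp1, HMB+LPS minus HMB) and from −0.94 to 0.66 (Dusp6, HMB minus Ctrl). For HMB+LPS minus LPS they ranged from −0.37 to 1.20 (Socs1), −0.25 to 0.25 (Socs2), −0.13 to 2.41 (Socs3), −0.20 to 1.49 (Cish), −0.20 to 0.21 (Dusp1), −0.085 to 0.53 (Dusp2), −0.73 to 0.60 (Dusp6) and −0.10 to 0.73 (Dusp16).

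With the replicate number as a fixed block, 3 genes passed for LPS minus Ctrl and 3 for HMB+LPS minus HMB (670 and 1169 probe sets in all), Cish being added with 2.90 and 3.20 (adjusted p = 0.0307 and 0.0104). As a random replicate block the counts were 2 and 4 (685 and 1167 in all). HMB+LPS and HMB, like LPS and Ctrl, share only numbers, since not every pair deviated together. The block changed no call in either HMB contrast, nor in the difference between them. The choice between probe sets was not run as an alternative, since each gene had 1. Without detection calls, low values of Socs1, Socs3, Cish and Dusp2 bound how well their differences are known.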
